A study of Homo sapiens with 4 samples.

Results

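The genes described here encode the proteins that let calcium and related cations across the plasma membrane, release calcium from intracellular stores and pump it back: the pore-forming and auxiliary subunits of voltage-gated calcium channels (*CACNA1*, *CACNA2D*, *CACNB*, *CACNG*), the transient receptor potential (TRP) channels (*TRPA*, *TRPC*, *TRPM*, *TRPV*, *MCOLN*), the store-release channels (*ITPR*, *RYR*), the store-operated entry proteins (*ORAI*, *STIM*) and the calcium pumps (*ATP2A*, *ATP2B*, *ATP2C*). They were chosen by a rule on the gene symbol alone, though with earlier results of these data known, and numbered 71 of the 28278 genes in the count table. RNA-seq had been performed on HepG2 cells, a human hepatocellular carcinoma line, infected with lentiviruses carrying Cas9 together with either a control sgRNA (control) or an sgRNA against *USP22* (sgUSP22), a deubiquitinase of the SAGA complex. All 4 libraries came from cells treated with Sorafenib for 24 h, and no library without Sorafenib was analysed here, so the comparison of 2 control with 2 sgUSP22 libraries addresses how these transcripts differ with the *USP22* sgRNA in Sorafenib-treated cells. The cells were infected populations rather than described single clones, and nothing in the labels says that replicates came from separate cultures, so p-values measure the spread between these libraries, which may be technical.

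Total counts lay between 62030307 and 64728272 per library, and levels are given as CPM, counts scaled to a common library size after TMM correction. The labels call the cells hepatocellular carcinoma cells, but 11 of 21 hepatocyte markers were listed at 0 in all libraries, *ALB*, *APOA1*, *APOB* and *TTR* among them, and the summed level of the list (995 to 1036 CPM in control and 1314 to 1343 CPM in sgUSP22 libraries) came mainly from *CPS1*. The *USP22* transcript had 16450 and 16537 counts in control and 20279 and 20368 counts in sgUSP22 libraries, a log2 fold change of 0.22 (SE 0.034, edgeR quasi-likelihood test, Benjamini-Hochberg adjusted p = 0.000394). The transcript was thus not lower in the libraries labelled sgUSP22, a gene count does not show whether the protein was lost, and every direction given here follows the label. The paper reports that Western blots bore out the efficiency of its knockout and knockdown, a protein result that was not part of these data. Of 8 fibroblast markers, 6 were tested, and 2 were called higher (*DCN*, *LUM*) and 2 lower (*PDGFRB*, *FAP*) in sgUSP22 libraries. That was 33.3% in each direction, from few genes, against 8.88% and 7.25% of all tested genes. *PDGFRA* was listed at 0 throughout, and the summed level of the list was 657 to 662 CPM in control and 903 to 904 CPM in sgUSP22 libraries. The part of these marker differences in the results below was not tested.

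Resting cells keep cytosolic calcium low and hold a large store of it in the endoplasmic reticulum (ER). Receptor signalling through phospholipase C makes inositol trisphosphate (IP3), which opens IP3 receptors in the ER. The emptied store is sensed by STIM proteins, which open ORAI channels in the plasma membrane, while SERCA pumps refill the ER, PMCA pumps expel calcium from the cell and SPCA pumps load the Golgi. In liver cells this circuit carries hormone-evoked calcium signals, whereas voltage-gated channels and ryanodine receptors are best known from nerve and muscle.

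Of the 71 genes, 42 had enough counts to be tested, and 12 of these passed an adjusted p below 0.05 with a fold change of at least 1.5. Called higher in sgUSP22 libraries were *ITPR1*, *ATP2B4*, *TRPM7*, *CACNA2D3*, *CACNA1H* and *TRPA1*, and called lower were *ATP2A3*, *MCOLN3*, *TRPC1*, *RYR1*, *CACNG6* and *TRPV2*. The 6 higher genes were 14.3% of the tested members, against 8.88% of all 15150 tested genes, and the 6 lower genes were also 14.3%, against 7.25% of all tested genes. With the adjusted p alone, 11 members were higher and 10 lower, or 26.2% and 23.8%, close to the 26.8% and 25.8% of all tested genes. The median log2 fold change of the tested members was 0.079, against 0.00091 for all tested genes. The groups did not overlap in 73.8% of the tested members, against 75.9% of all tested genes. Of the 12 called genes, 3 (*TRPA1*, *CACNG6* and *TRPV2*) reached the minimum for testing in 1 group only, with no library of the other group past it, so they had to differ in order to be tested at all.

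**Figure D1:**
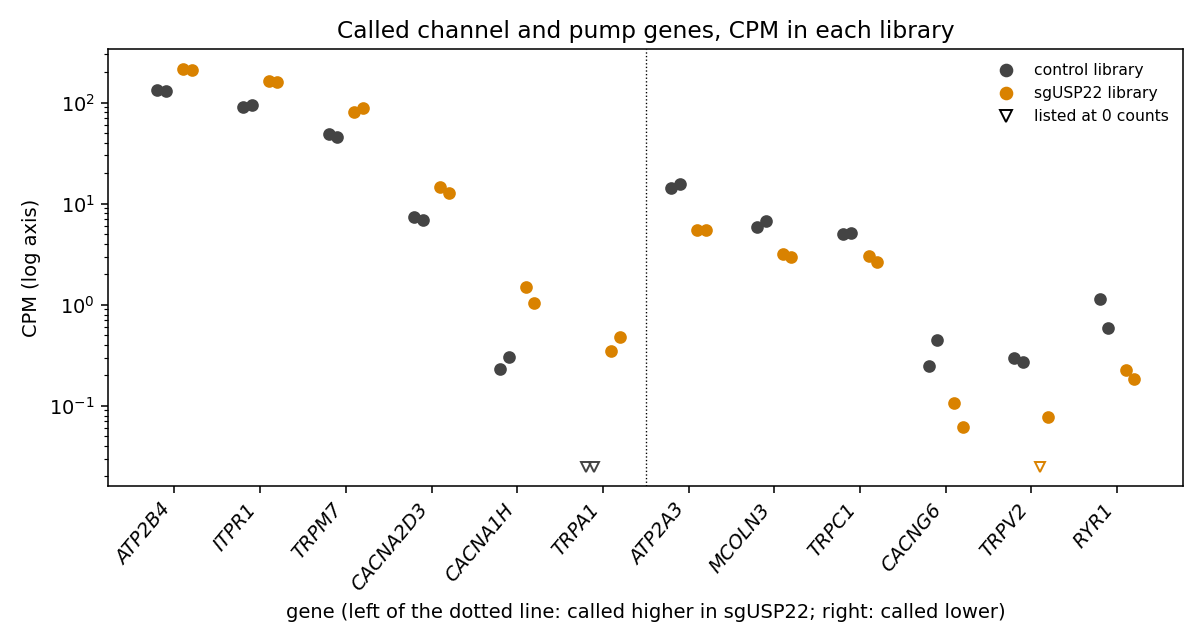
The 12 called genes are plotted on the x axis, those called higher in sgUSP22 to the left of the dotted line and those called lower to the right, with CPM in each of the 4 libraries on a log y axis. In each gene both libraries of one group lie on the same side of both libraries of the other, and the levels run from 214 CPM for *ATP2B4* to listed at 0 for *TRPA1* in both control libraries.

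The IP3 receptors, the main calcium release channels of the ER in non-excitable cells, moved in opposite directions. *ITPR1* had 90.8 and 94.3 CPM in control libraries and 164 and 161 CPM in sgUSP22 libraries. Both sgUSP22 libraries were thus higher, with a gap to the control libraries far wider than the spread within either group (log2 fold change 0.81, SE 0.039, edgeR adjusted p = 2.67e-07). *ITPR2* had 42.1 and 43.0 CPM in control and 60.6 and 66.0 CPM in sgUSP22 libraries. It also rose without overlap, at a log2 fold change of 0.57 (SE 0.056, edgeR adjusted p = 2.2e-05) just under the 1.5-fold threshold of 0.585, which it passed when library size alone was used for scaling (0.63), whereas removal of trends with GC content and transcript length left 0.32. *ITPR3* was the most abundant member of all per length of transcript and had 486 and 499 CPM in control and 408 and 410.1 CPM in sgUSP22 libraries. It was lower in both sgUSP22 libraries by a small margin (log2 fold change -0.27, SE 0.032, edgeR adjusted p = 8.56e-05). The annotated exons of *ITPR3* share 10.4% of their bases with *UQCC2* on the opposite strand, a gene with 3343 and 3659 counts in control and 2853 and 2622 counts in sgUSP22 libraries, and without a stated strand setting reads in the shared part cannot be told apart.

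Expressed per kilobase of the canonical transcript, the IP3 receptors summed to 66.9 ± 1.31 (SD, n = 2) CPM per kb in control and 66.5 ± 0.303 (SD, n = 2) CPM per kb in sgUSP22 libraries. The totals differed by less than the spread between the control libraries, while the make-up shifted. The share of *ITPR3* in the summed counts per kb was 81.0% and 80.9% in control and 67.8% and 67.7% in sgUSP22 libraries, that of *ITPR1* was 13.9% and 14.0% against 24.9% and 24.4%, and that of *ITPR2* was 5.08% and 5.04% against 7.28% and 7.88%. None of these shares overlapped between the groups. A share is formed within a library and does not depend on library scaling, but it does depend on the transcript lengths used. Neither shares nor totals were corrected for trends with GC content, which was 47.4% for *ITPR1*, 42.0% for *ITPR2* and 58.5% for *ITPR3*. With trends in GC content and transcript length removed, the log2 fold changes were 0.66 for *ITPR1* and 0.32 for *ITPR2*. With 2 libraries against 2, the smallest p an exact permutation test (two-sided) can give is 0.333.

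**Figure D2:**
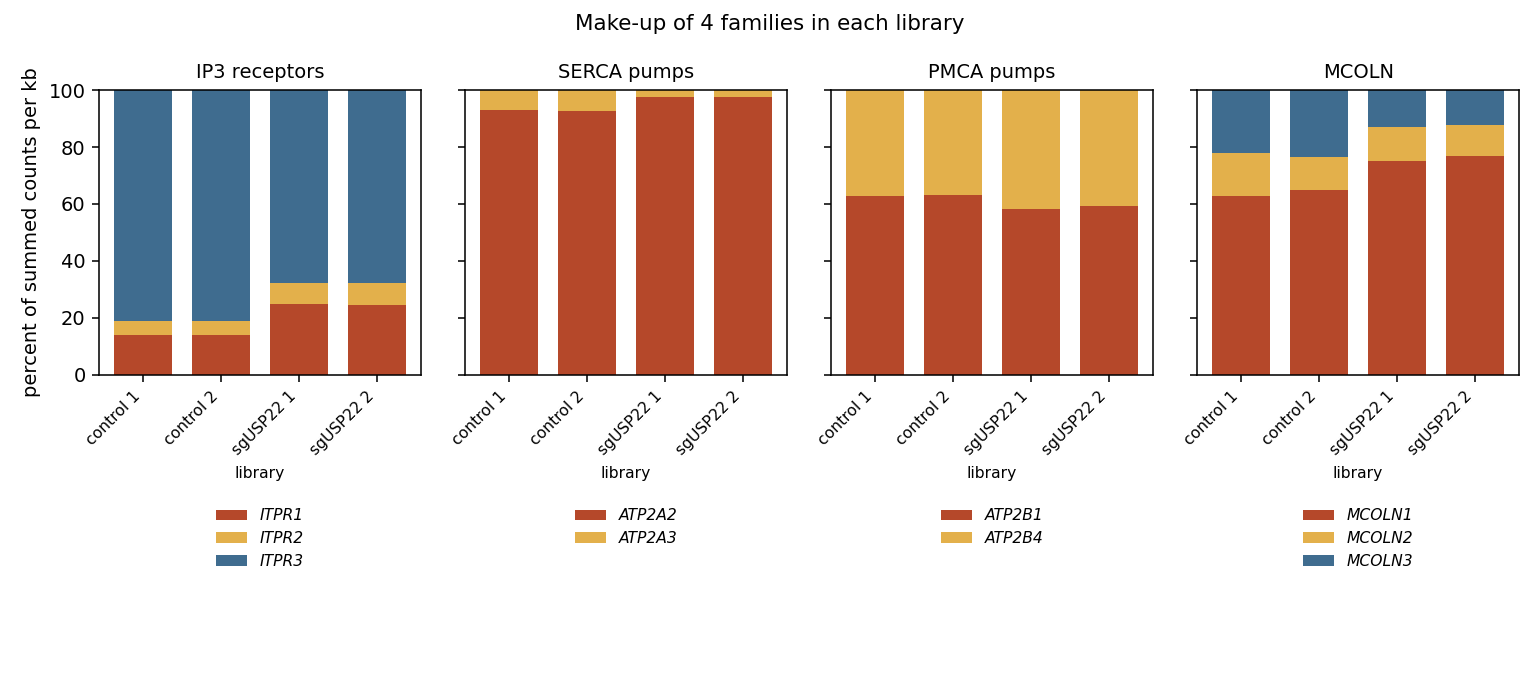
Stacked bars give, for each of the 4 libraries on the x axis, the percent of the summed counts per kb of canonical transcript taken by each gene of the IP3 receptors, the SERCA pumps *ATP2A2* and *ATP2A3*, the PMCA pumps and the *MCOLN* channels. The *ITPR1* share is near 14% in control and near 24% to 25% in sgUSP22 libraries, and the *ATP2A3* and *MCOLN3* shares are smaller in both sgUSP22 libraries.

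The ryanodine receptors, the release channels of muscle and nerve, were present at a few counts only. *RYR1* had 70 and 37 counts in control and 15 and 12 counts in sgUSP22 libraries. Both sgUSP22 libraries were lower (log2 fold change -2.06, SE 0.51, edgeR adjusted p = 0.00657), but without control replicate 1 the call was lost (log2 fold change -1.51, edgeR adjusted p = 0.115). *RYR2* had 15 and 4 counts in control and 35 and 22 counts in sgUSP22 libraries, a log2 fold change of 1.49 (SE 0.70, edgeR adjusted p = 0.101). The spread of *RYR2* within a group was too wide for a call, which it reached only without control replicate 1 (log2 fold change 2.73, edgeR adjusted p = 0.039). *RYR3* had 26 and 11 counts in control and 23 and 16 counts in sgUSP22 libraries, so its groups overlapped. Of 8 muscle markers, 5 were listed at 0 in all libraries, *MYH2*, *MYH7* and *MYOG* among them, and the summed level of the list was 0.930 to 0.984 CPM in control and 1.28 to 1.66 CPM in sgUSP22 libraries.

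Among the calcium pumps, the plasma membrane pumps rose and one ER pump fell. *ATP2B4*, which encodes the plasma membrane pump PMCA4, had 132 and 129.5 CPM in control and 214 and 212 CPM in sgUSP22 libraries. The sgUSP22 libraries were higher with a narrow spread in both groups (log2 fold change 0.70, SE 0.036, edgeR adjusted p = 3.95e-07), although with trends in GC content and transcript length removed the change was 0.55, under 1.5-fold. *ATP2B1*, which encodes PMCA1, had 182 and 179.9 CPM in control and 240.4 and 252 CPM in sgUSP22 libraries. It rose without overlap but stayed under 1.5-fold (log2 fold change 0.44, SE 0.038, edgeR adjusted p = 8.56e-06), and the same removal left 0.15 (edgeR adjusted p = 0.00327). Together these PMCA genes summed to 40.7 ± 0.48 (SD, n = 2) CPM per kb in control and 59.4 ± 1.03 (SD, n = 2) CPM per kb in sgUSP22 libraries. *ATP2B2* and *ATP2B3*, the PMCA genes known from brain, were listed at 0 in all libraries.

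*ATP2A3*, which encodes the ER pump SERCA3, had 14.3 and 15.7 CPM in control and 5.54 and 5.48 CPM in sgUSP22 libraries. It had the largest fall among members with a mean of at least 100 counts (log2 fold change -1.44, SE 0.11, edgeR adjusted p = 3.9e-06), and its share of the SERCA counts per kb formed with *ATP2A2* fell from 7.13% ± 0.173 (SD, n = 2) to 2.44% ± 0.0276 (SD, n = 2). *ATP2A2*, the housekeeping SERCA2 gene and the next most abundant member per kb after *ITPR3*, had 335.5 and 353 CPM in control and 394 and 383.5 CPM in sgUSP22 libraries. Its rise was small (log2 fold change 0.17, SE 0.037, edgeR adjusted p = 0.00297) and no longer passed once trends with GC content and transcript length were removed (0.072, edgeR adjusted p = 0.124). *ATP2A1*, the SERCA1 gene of fast muscle, had 66 and 21 counts in control and 59 and 62 counts in sgUSP22 libraries, and its groups overlapped. Of its annotated exon bases, 21.6% are shared with *ATP2A1-AS1* on the opposite strand, which had more counts (294 and 339 in control, 282 and 247 in sgUSP22 libraries). Without control replicate 1, *ATP2A1* was called higher (log2 fold change 1.46, edgeR adjusted p = 0.0347), and without control replicate 2 its log2 fold change was -0.22. The Golgi pump gene *ATP2C1* rose from 121 and 118 CPM to 144 and 145.5 CPM (log2 fold change 0.28, SE 0.037, edgeR adjusted p = 0.000163), also under 1.5-fold. *ATP2C2* had 34 and 13 counts in control and 9 and 16 counts in sgUSP22 libraries, with overlap.

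Of the 5 tested store sensor and entry channel genes, 0 were called, where 16.1% of all tested genes were called in either direction. So few genes cannot be told apart from that share. *STIM1*, the main sensor of ER calcium, had 51.7 and 51.4 CPM in control and 62.8 and 66.3 CPM in sgUSP22 libraries. It rose slightly and without overlap (log2 fold change 0.33, SE 0.049, edgeR adjusted p = 0.000367). *ORAI1*, the principal pore subunit of store-operated entry, had 24.7 and 25.3 CPM in control and 19.7 and 18.7 CPM in sgUSP22 libraries. It fell slightly (log2 fold change -0.38, SE 0.078, edgeR adjusted p = 0.00232), which no longer passed once those trends were removed (-0.13, edgeR adjusted p = 0.186). *ORAI2*, *ORAI3* and *STIM2* did not pass the test, with log2 fold changes of 0.087 (SE 0.071), -0.28 (SE 0.13) and 0.072 (SE 0.11). Summed per kb, the ORAI genes had 23.3 ± 0.0521 (SD, n = 2) CPM per kb in control and 18.8 ± 0.862 (SD, n = 2) CPM per kb in sgUSP22 libraries, and the STIM genes 14.6 ± 0.14 (SD, n = 2) and 17.8 ± 0.512 (SD, n = 2). More than the other members here, *ORAI3* shares its exons with another annotated transcript, 52.9% of the bases being common to a lncRNA on the same strand.

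**Figure D3:**
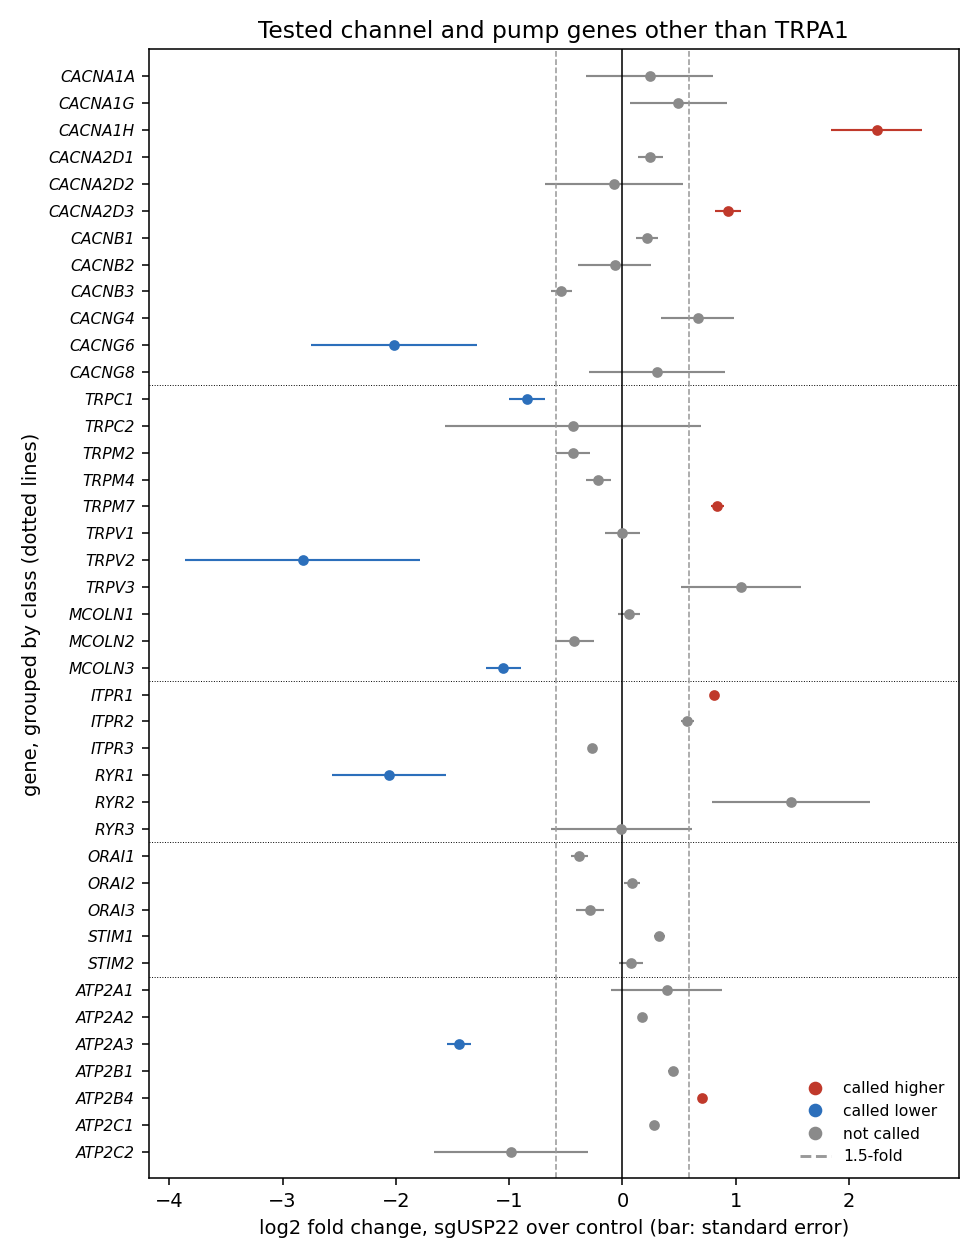
Points give the log2 fold change, sgUSP22 over control, of 41 tested genes on the x axis with bars of 1 standard error, listed on the y axis by class from voltage-gated channels (top) through TRP, store-release and store-operated entry genes to pumps. Dashed lines mark 1.5-fold, and *TRPA1*, listed at 0 in both control libraries, is left out because its fitted value is not a measured size. Genes called higher (5 drawn) and lower (6) occur side by side in most classes. The few *ORAI* and *STIM* points all lie within the dashed lines.

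The TRP channels, cation channels gated by lipids, temperature, oxidants and other stimuli, went both ways, with 2 of 12 tested genes called higher (16.7%, against 8.88% of all tested genes) and 3 called lower (25.0%, against 7.25%). Of these 5, *TRPA1* and *TRPV2* reached the minimum for testing through 1 group only. *TRPM7*, a magnesium- and calcium-permeable channel fused to a kinase, had 49.0 and 45.9 CPM in control and 80.5 and 89.0 CPM in sgUSP22 libraries. It was the most abundant TRPM gene per kb and rose without overlap (log2 fold change 0.84, SE 0.060, edgeR adjusted p = 2.72e-06), but with trends in GC content and length removed it was at 0.54, under 1.5-fold. *TRPA1*, the receptor of electrophilic irritants, was listed at 0 in both control libraries and had 23 and 31 counts in the sgUSP22 libraries. In sgUSP22 libraries its mean level was 8.53-fold what 3 counts would give in control. The 3 counts were taken as an allowance for counting error in a listing at 0 and are not a firm limit. The edgeR adjusted p (0.00132) is for a gene that had to differ to be tested. A listing at 0 may have other reasons. *STIMATE*, of the lists below, had 1284 counts in control replicate 1 and was listed at 0 in control replicate 2 and both sgUSP22 libraries, which was not explained or tested. The exons of *TRPA1* share 15.5% of their bases with *MSC-AS1* on the opposite strand, which rose from 35 and 35 counts to 91 and 93 counts, so part of the *TRPA1* reads cannot be told apart from those of *MSC-AS1*.

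The TRP genes called lower were *MCOLN3*, *TRPC1* and *TRPV2*. *MCOLN3*, a cation channel of endosomes and lysosomes, had 360 and 424 counts in control and 208 and 191 counts in sgUSP22 libraries (log2 fold change -1.05, SE 0.15, edgeR adjusted p = 0.000278). Its relatives did not pass: *MCOLN1*, the main lysosomal calcium release channel, had a log2 fold change of 0.059 (SE 0.099) and *MCOLN2* of -0.42 (SE 0.17, edgeR adjusted p = 0.0622). The *MCOLN3* share of the MCOLN counts per kb was 22.1% and 23.5% in control and 13.1% and 12.1% in sgUSP22 libraries. *TRPC1*, a subunit of receptor-operated cation channels, had 308 and 321 counts in control and 200 and 171 counts in sgUSP22 libraries (log2 fold change -0.84, SE 0.16, edgeR adjusted p = 0.00156). Both genes were lower in each sgUSP22 library than in either control library. *TRPV2* had 18 and 17 counts in control and 0 and 5 counts in sgUSP22 libraries, and its call (log2 fold change -2.82, SE 1.04, edgeR adjusted p = 0.0433) was lost with DESeq2 (adjusted p = 0.108), with no filter (edgeR adjusted p = 0.16) and without control replicate 1, control replicate 2 or sgUSP22 replicate 1 (edgeR adjusted p = 0.129, 0.108 and 0.193).

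Of the TRP genes that were not called, *TRPM2*, which opens under oxidative stress, was lower by a log2 fold change of -0.44 (SE 0.15, edgeR adjusted p = 0.0296), under the fold threshold. *TRPM4*, a calcium-activated cation channel, had 678 and 629 counts in control and 602 and 589 counts in sgUSP22 libraries (edgeR adjusted p = 0.127). *TRPV1*, the capsaicin receptor, had 450 and 363 counts in control and 399 and 460 counts in sgUSP22 libraries, with overlapping groups. *TRPV3* had 11 and 22 counts in control and 37 and 35 counts in sgUSP22 libraries (log2 fold change 1.05, SE 0.53, edgeR adjusted p = 0.125). *TRPC2*, a pseudogene in humans, had 8 and 14 counts in control and 0 and 17 counts in sgUSP22 libraries, with overlap.

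Voltage-gated calcium channels were represented mostly by auxiliary subunits. Of 10 *CACNA1* genes, which encode the pore, 5 were listed at 0 in all libraries and 3 were tested. *CACNA1H*, the pore of a T-type channel that opens at small depolarizations, had 14 and 19 counts in control and 99 and 67 counts in sgUSP22 libraries. Both sgUSP22 libraries were higher, although the level stayed near 1 CPM (log2 fold change 2.24, SE 0.40, edgeR adjusted p = 0.00106). *CACNA1G*, also of the T-type, had 36 and 23 counts in control and 43 and 45 counts in sgUSP22 libraries and did not pass the test (edgeR adjusted p = 0.364). *CACNA1F*, of the L-type, was too low to be tested with edgeR, with 13 and 7 counts in control and listed at 0 in both sgUSP22 libraries. Its mean control level was 3.53-fold what 3 counts would give in the sgUSP22 libraries, with no allowance for the error of that mean. DESeq2, run as an alternative without the minimum count filter, called *CACNA1F* lower.

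Of the auxiliary subunits, *CACNA2D3*, which aids the trafficking of channels to the membrane, rose from 7.32 and 6.94 CPM in control to 14.5 and 12.7 CPM in sgUSP22 libraries (log2 fold change 0.93, SE 0.11, edgeR adjusted p = 8.48e-05). *CACNA2D3-AS1*, which lies on the opposite strand and overlaps 2.59% of the exon bases of *CACNA2D3*, went from 14 and 13 counts to 0 in both. *CACNA2D1* had 563 and 656 counts in control and 730 and 796 counts in sgUSP22 libraries (edgeR adjusted p = 0.0951). *CACNB3*, the most abundant voltage-gated subunit gene per kb, had 962 and 994 counts in control and 719 and 702 counts in sgUSP22 libraries. It fell by 0.54 on the log2 scale (SE 0.091, edgeR adjusted p = 0.000745), under the 1.5-fold threshold. *CACNB1* had 618 and 629 counts in control and 794 and 737 counts in sgUSP22 libraries (edgeR adjusted p = 0.0982). *CACNG6* had 15 and 28 counts in control and 7 and 4 counts in sgUSP22 libraries, and its call (log2 fold change -2.02, SE 0.73, edgeR adjusted p = 0.0412) was lost with DESeq2 (adjusted p = 0.145), with the replicate number as a block (edgeR adjusted p = 0.0755) and without any one of the 4 libraries (edgeR adjusted p from 0.0564 to 0.304). *CACNG4* had 65 and 44 counts in control and 104 and 79 counts in sgUSP22 libraries (edgeR adjusted p = 0.111). Of 6 neuron markers, 3 were listed at 0 in all libraries, *SYN1*, *STMN2* and *ELAVL4*. None of the 3 that were tested was called, where 16.1% of all tested genes were. The summed level of the list was 9.03 to 9.04 CPM in control and 9.67 to 10.9 CPM in sgUSP22 libraries.

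The 29 members that were not tested included 23 listed at 0 in all 4 libraries, 11 of them voltage-gated, 10 TRP and 2 pump genes. A listing at 0 was taken to allow up to 3 counts, between 0.0457 and 0.0492 CPM depending on the library, and this is an allowance for counting error only. The calcium-selective epithelial channels *TRPV5* and *TRPV6*, the cold receptor *TRPM8* and the skeletal muscle pore gene *CACNA1S* were among them. The remaining 6, *CACNA1C*, *CACNA1F*, *CACNB4*, *TRPC6*, *TRPM3* and *TRPM6*, had at most 13 counts in any library.

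The annotated start regions of the called-higher members with a mean of at least 500 counts are shown because the rise of these members rests on the most reads. Each is the 250 bases before the RefSeq start on GRCh38.p14, 5′ to 3′ on the strand of the gene. Capitals mark GC boxes, GGGCGG on either strand.
ITPR1 (chr3:4493098-4493347, plus strand): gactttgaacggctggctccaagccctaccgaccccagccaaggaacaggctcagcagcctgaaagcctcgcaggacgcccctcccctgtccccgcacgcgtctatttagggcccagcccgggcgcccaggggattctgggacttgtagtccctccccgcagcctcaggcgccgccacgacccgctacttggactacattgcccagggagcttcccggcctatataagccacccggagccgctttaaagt
ATP2B4 (chr1:203626582-203626831, plus strand): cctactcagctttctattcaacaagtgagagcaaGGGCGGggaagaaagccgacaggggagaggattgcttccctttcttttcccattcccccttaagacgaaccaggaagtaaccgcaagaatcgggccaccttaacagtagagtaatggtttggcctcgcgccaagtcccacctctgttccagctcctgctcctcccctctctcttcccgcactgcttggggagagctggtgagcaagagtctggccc
TRPM7 (chr15:50686798-50687047, minus strand): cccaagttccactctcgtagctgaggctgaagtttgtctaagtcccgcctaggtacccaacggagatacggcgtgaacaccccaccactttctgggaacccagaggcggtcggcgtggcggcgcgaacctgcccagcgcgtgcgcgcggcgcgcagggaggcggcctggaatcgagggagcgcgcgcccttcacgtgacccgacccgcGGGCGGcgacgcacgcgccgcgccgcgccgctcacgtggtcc
CACNA2D3 (chr3:54122302-54122551, plus strand): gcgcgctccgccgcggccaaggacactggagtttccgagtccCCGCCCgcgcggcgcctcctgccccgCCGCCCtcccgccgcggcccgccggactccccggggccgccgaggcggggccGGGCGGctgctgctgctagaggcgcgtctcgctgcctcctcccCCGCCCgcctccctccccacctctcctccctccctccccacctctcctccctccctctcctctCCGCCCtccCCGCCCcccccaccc
Counted on both strands, these stretches held 0, 1, 1 and 6 GC boxes in the order shown, and 42.6% of 35116 such stretches hold at least 1. They held 17, 8, 38 and 31 CpG dinucleotides, against a median of 11 over all stretches. The CACGTG E-box, which 6.34% of all stretches hold, occurred 2 times before *TRPM7* and not in the other 3, and neither TATAAA (10.7% of all) nor CCAAT (32.0% of all) was found in any of the 4. *ATP2A3* had no entry, and of the 71 members 49 did. The letters describe these windows only, and no binding or histone mark was measured here.

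The genes around each member were described by the median log2 fold change of all tested genes starting within 5 Mb. *ITPR1*, on chromosome 3 from 4493345 to 4847506 of hg38, had 16 such neighbours with a median of 0.45, below its own 0.81. *ITPR2* on chromosome 12 had 37 neighbours with a median of 0.32 beside its own 0.57, and *TRPM7* on chromosome 15 had 44 with 0.29 beside 0.84. *ATP2B4* on chromosome 1 had 80 neighbours with 0.16. *CACNA2D3* (0.038), *MCOLN3* (0.046), *ATP2A3* (-0.064) and *RYR1* (-0.096) stood among neighbours with medians near 0. *CACNA1H* and *TRPC1* moved against their neighbours, which had medians of -0.21 and 0.21. The part of regional shifts in the results was not tested.

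**Figure D4:**
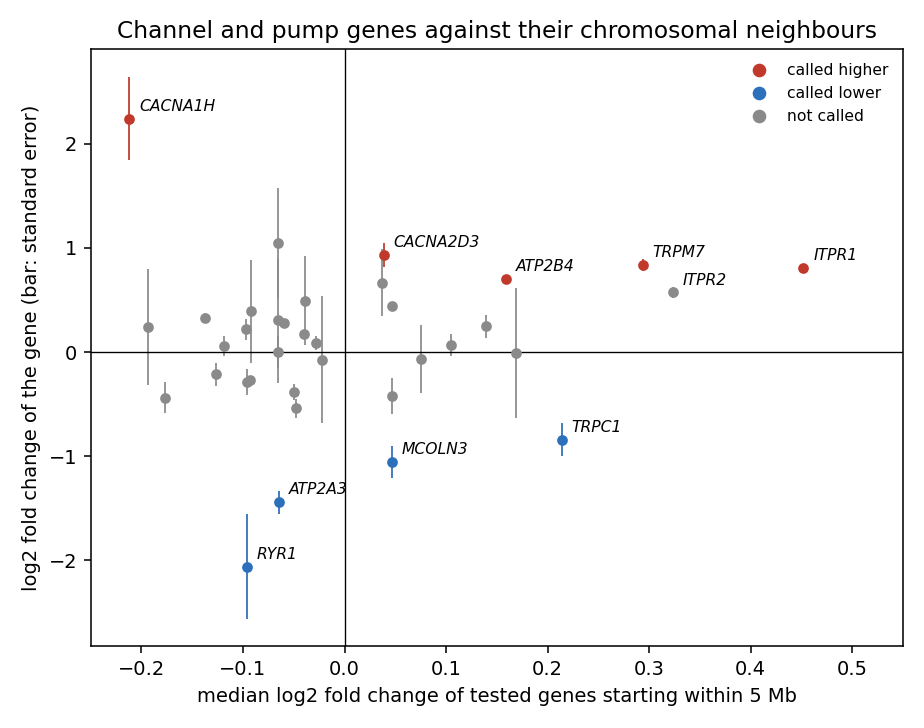
The log2 fold change, sgUSP22 over control, of 36 genes with all 4 libraries past the minimum count is plotted on the y axis (bars of 1 standard error) against the median log2 fold change of the tested genes starting within 5 Mb on the x axis. *ITPR1*, *ITPR2* and *TRPM7* lie to the right, among neighbours with positive medians, whereas *CACNA1H* and *TRPC1* lie on the side opposite to their own change.

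The 11 members higher by the adjusted p alone had canonical transcripts with a median GC content of 46.7% (38.0% to 66.1%), and the 10 lower ones had 61.0% (39.4% to 65.8%), with ranges that largely overlapped. The difference in GC content was not tested. After trends of each library with GC content and transcript length were removed together, which does not separate their parts, *ITPR1* (0.66), *CACNA2D3* (0.93), *CACNA1H* (2.32), *ATP2A3* (-1.31), *MCOLN3* (-1.20), *TRPC1* (-1.02), *RYR1* (-2.11) and *TRPA1* were still called, *CACNG6* and *TRPV2* no longer passed (edgeR adjusted p = 0.0622 and 0.0572), and *ATP2B4* (0.55) and *TRPM7* (0.54) came under 1.5-fold with adjusted p-values of 1.91e-06 and 2.94e-05 from edgeR. *CACNB1* then passed the adjusted p (0.35, edgeR adjusted p = 0.0156).

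Other genes of calcium handling were taken from 9 hand-written lists with 122 genes, of which 94 were tested, 5 were called higher and 10 lower, and the median log2 fold change was -0.031. These were 5.32% and 10.6% of the tested list genes, against 8.88% and 7.25% of all tested genes. The most abundant gene of each list is given per kb of transcript. The phospholipase C list, whose enzymes make IP3, held 3 higher and 3 lower genes of 13 tested, 23.1% in each direction against the same 8.88% and 7.25% of all tested genes. Each share came from 3 genes only, too few to set the list apart. Of the called genes, *PLCG2*, which acts downstream of tyrosine kinases, rose from 1964 and 1960 counts to 4678 and 4446 counts (log2 fold change 1.14, SE 0.051, edgeR adjusted p = 1.77e-07). *PLCE1* (0.76) and the low *PLCH2* (1.42) were also higher. The G protein-coupled *PLCB3* fell from 5623 and 5301 counts to 3432 and 3362 counts (log2 fold change -0.76, SE 0.051, edgeR adjusted p = 1.9e-06), and *PLCB4* (-0.84) and *PLCB2* (-0.89) were lower as well. *PLCD3*, the most abundant of the list per kb, had a log2 fold change of -0.13 (SE 0.038, edgeR adjusted p = 0.0138).

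Of 11 tested genes of mitochondrial calcium uptake, the uniporter regulator *MICU2* was higher (420 and 448 counts in control, 980 and 897 in sgUSP22 libraries, log2 fold change 1.03) and the outer membrane channel *VDAC2* was lower (-0.76). *VDAC1*, the most abundant of them, had -0.18. In the ER lumen list, with 11 tested, the calcium-binding *NUCB2* was higher (0.75) and *RCN3* lower (-1.03), and the chaperone *HSP90B1*, the most abundant per kb, had 0.46. Of 18 tested partners of store-operated entry and release, the scaffold *HOMER3*, which binds IP3 and ryanodine receptors, was called lower (2337 and 2514 counts in control, 1330 and 1224 in sgUSP22 libraries, a ratio of 0.499), and *TMBIM6*, the most abundant, had 0.039. Of 12 other calcium-permeable channels, *NALCN*, a sodium leak channel, was called lower (-0.60) and *PIEZO1*, the most abundant, had 0.13. The called genes were 9.09% in each direction of the tested genes of mitochondrial uptake and of the ER lumen. The lower ones were 5.56% of the partners and 8.33% of the other channels. Of all tested genes 8.88% were higher and 7.25% lower, so these calls do not set the lists apart.

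Of the calcium effectors, *PPP3CB*, a catalytic subunit of calcineurin, was the 1 called gene of 13 tested in the calcineurin and NFAT list (-0.87), and *PPP3R1*, the most abundant, had -0.031. Of 9 tested calmodulin-dependent kinases, *CAMK2G* (-0.76) and the low *PNCK* (74 and 82 counts in control, 33 and 49 in sgUSP22 libraries) were lower, and *CAMKK2*, the most abundant, had -0.083. The lower genes were 7.69% of the tested calcineurin and NFAT genes and 22.2% of the tested kinases, the latter from 2 genes. Of all tested genes 7.25% were lower. None of 6 tested pump partners was called, where 16.1% of all tested genes were in either direction, and *CALM2*, the most abundant per kb, had -0.19. *BSG*, which was higher than *CALM2* in CPM but not per kb, fell by 0.51 on the log2 scale (SE 0.032, edgeR adjusted p = 1.24e-06), under the fold threshold. Of 8 sodium/calcium exchangers, 1, *SLC24A1*, was tested and had -0.12 (edgeR adjusted p = 0.639). *VDAC2*, *PPP3CB* and *CAMK2G* all lie on chromosome 10, where their tested neighbours within 5 Mb had medians of -0.46, -0.44 and -0.46. Their starts lie between 73436433 and 75210154 of hg38, so these windows largely share the same genes. The medians are thus not separate observations, and these lower calls come from the same stretch, whose part in them was not tested. *PLCE1* rose on the same chromosome among neighbours with a median of -0.39.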

How the data were processed

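RNA-seq counts of 2 control and 2 sgUSP22 HepG2 libraries were analysed. Per the labels and the study's methods, the authors used HISAT2 (v2.2.1) for alignment to hg38 and deposited whole-number gene counts from StringTie (v2.2.1), not divided by library size. StringTie derives counts from read coverage, so low values are uneven. The annotation and strand setting are not given in the sources used here. Columns were assigned by name, with 0 left over.

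In R 4.3.3, edgeR 4.0.16 was used with TMM factors, filterByExpr (minimum count 10) and the quasi-likelihood test (glmQLFit, glmQLFTest). P-values were adjusted by Benjamini-Hochberg over all tested genes, and a call needed both an adjusted p under 0.05 and a change of 1.5-fold or more, the study's own limits. Standard errors were obtained as the size of the log2 fold change over the root of the F statistic. Replicates differed by more than sampling noise (mean chi-square per gene 7.91 in control and 8.44 in sgUSP22 libraries). The procedure was tested on simulated data. Lengths, GC content, positions and overlaps come from GENCODE release 44 on hg38, to which 70 of the 71 members were matched by symbol (all but *TRPC2*), and levels per kb divide CPM by the canonical transcript length. Promoter letters are from RefSeq.

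The genes named are all called members, all tested *ITPR*, *RYR*, *ORAI*, *STIM* and *ATP2* genes and the 1 or 2 most abundant tested genes per kb of each other family, and, of the pathway lists, the called and the most abundant genes. *TRPM2*, *MCOLN2*, *TRPC2*, *BSG*, *STIMATE*, *CACNA1F* and the untested genes were named after their values were seen. Members and lists were chosen with earlier results of these data known. Alternatives were DESeq2 1.42.0, its size factors in edgeR, unscaled library sizes, testing every gene, testing those averaging 50 counts or more, no fold change threshold, a block for the replicate number, removal of lowess trends (span 0.3) with GC content and length, and leaving out each library.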

Additional observations from a re-analysis of the deposited data

How the results depend on the processing

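The number of members called higher, 6, ranged from 4 to 7 under the settings that kept all 4 libraries and a fold threshold. The number called lower, 6, ranged from 3 to 6 (5 with DESeq2, where *CACNG6* and *TRPV2* were lost and *CACNA1F*, untested in edgeR, was gained), and it was 3 with a mean of at least 50 counts, which leaves *RYR1*, *CACNG6* and *TRPV2* untested. Without a fold change threshold 11 were higher and 10 lower, by construction. With each library left out in turn, 6 to 8 were higher and 3 to 5 lower, the 3 without control replicate 1, and the group with a lone library was assumed to vary like the other. The direction turned for *CACNA2D1* (-0.069) and *STIM2* (-0.049) after the GC content and length correction, for *TRPV1* with DESeq2 size factors (-0.0036) and a mean of at least 50 counts (-0.0043), and for *RYR3* with library size alone (0.042) and the replicate block (0.069), none of them past the test, and the cause was not tested. With a library left out, *TRPV1* ranged from -0.16 to 0.18, *MCOLN1* from -0.021 to 0.14, *RYR3* from -0.51 to 0.76, *STIM2* from -0.014 to 0.16 and *ATP2A1* from -0.22 to 1.46. Of 235 values for 35 named genes with all libraries kept, 217 kept their direction and their side of the adjusted p threshold.

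The replicate numbers are shared between groups, but same-numbered libraries had a correlation of 0.042 between their deviations from the group means, and the labels name no batch. With the replicate block, 6 members were called higher and 5 lower, *CACNG6* being lost. Low counts limit *TRPA1*, *TRPV2*, *CACNG6*, *CACNA1H* and the *RYR* genes most. The *USP22* transcript had a log2 fold change from 0.21 to 0.27 over all settings.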
